A study of Mus musculus with 2 samples.

Results

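The genes described here handle cholesterol once it reaches a cell: uptake (Scarb1, Lrp1), release and transfer in the lysosome (Lipa, Npc1, Npc2), ester storage and mobilisation (Soat1, Lipe) and export (Abca1, Abcg1, Apoe). They were listed by name and role, and they make 10 of the 55536 genes of the deposited gene table. Total RNA was sequenced from the adrenal gland of 10-day-old female B6CASTF1/J mice, a first-generation cross between the strains C57BL/6J and CAST/EiJ. The series holds 1 group of 2 libraries, with no treatment named, numbered replicate 2 and replicate 1, each prepared with a directional kit from 300 ng of RNA to which ERCC spike-ins were added. The tissue samples are labelled as different females, but both libraries are described with the same female and cDNA number and share 1 donor entry. Whether the libraries come from separate animals was therefore not settled, and each SD may not measure spread between animals. Markers of other organs also differed between the libraries, in both directions. The kidney tubule marker Slc34a1 had 5450 counts in replicate 2 and 6 in replicate 1, and the liver marker Alb had 30327 and 163387. The source of those differences, which each SD may include, was not tested.

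Cells of the adrenal cortex make steroid hormones from cholesterol, and they keep a reserve of cholesteryl esters in lipid droplets. In rodents the scavenger receptor SR-BI takes esters directly from high-density lipoprotein, while endocytic receptors carry whole particles to the lysosome, where the esters are cleaved and the free sterol is passed to the limiting membrane. An acyltransferase of the endoplasmic reticulum makes the stored esters, hormone-sensitive lipase releases cholesterol from them, and ABC transporters pass surplus sterol to apolipoprotein acceptors.

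The libraries held 33378436 expected counts in replicate 2 and 35636846 in replicate 1. Markers of steroidogenic cortex were abundant, with all 7 detected and a summed level of 4141 TPM in replicate 2 and 3838 TPM in replicate 1. The list was led by Hsd3b1, a steroid dehydrogenase, and Cyp21a1, the 21-hydroxylase, at 1440 ± 22.5 and 831 ± 18.7 TPM (SD, n = 2). TPM, which expresses transcripts as parts of a common total, is scaled by transcript length, so levels can be set against each other between genes. The chromaffin cell markers summed to 1000 TPM in replicate 2 and 1032 TPM in replicate 1. Markers of other organs were present too and differed between the libraries, with values given beside the genes they bear on.

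All 10 genes passed the detection limit of 1 TPM in each library, and 9 of them reached 10 TPM in each. Of 22015 nuclear protein-coding genes, 58.1% were detected, and 47.8% of the detected ones reached 10 TPM in each library. The median of the 10 genes was 55.6 TPM, and that of detected nuclear protein-coding genes was 10.1 TPM. The levels ran in the order Apoe, Scarb1, Lipe, Soat1, Lrp1, Lipa, Abca1, Npc2, Npc1 and Abcg1. The 2 libraries of no gene overlapped those of its neighbour in this order. Apoe ranked 66 among nuclear protein-coding genes, Scarb1 256, Lipe 361 and Soat1 450, whereas Abcg1 ranked 9258. Together the 10 genes made up 955 TPM in replicate 2 and 1222 TPM in replicate 1.

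**Figure D1:**
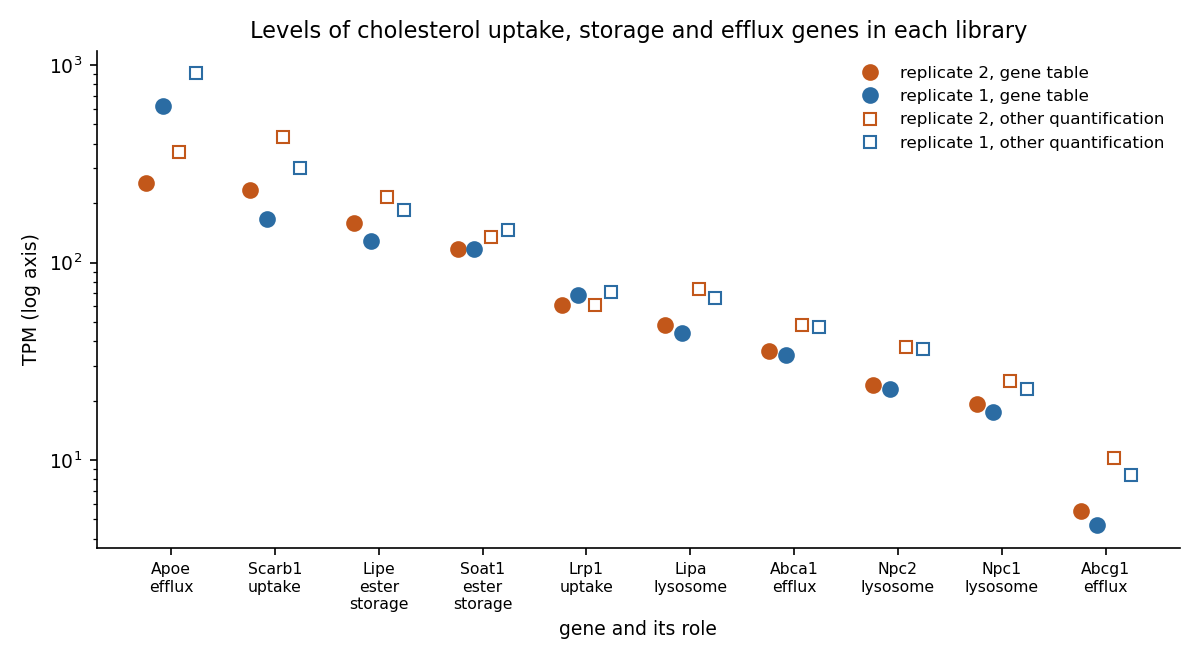
Level of each gene in TPM (log axis), with replicate 2 left of replicate 1, from the gene table (filled circles) and from the other deposited quantification (open squares). Apoe shows the widest gap between the libraries, at 254 TPM in replicate 2 and 618 TPM in replicate 1, and Abcg1 is lowest, near 5 TPM.

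The order held in part in the second deposited quantification. There the median detected protein-coding gene was 1.51-fold higher than in the gene table, a log2 shift of 0.60. Scarb1 shifted by 0.87, Abcg1 by 0.86, Soat1 by 0.27 and Lrp1 by 0.02 on the log2 scale. Scarb1 stood at 430 TPM in replicate 2 and 299.9 TPM in replicate 1, and Apoe at 364 TPM in replicate 2 and 907 TPM in replicate 1, so these ranges overlapped there. Lipa, at 73.2 TPM in replicate 2 and 66.4 TPM in replicate 1, and Lrp1, at 60.8 and 70.8 TPM in the same libraries, overlapped as well.

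The libraries were set against each other by an exact two-sided binomial test of rounded expected counts, with the Benjamini-Hochberg adjustment over 18883 genes. The test compares these libraries, covers counting error only and has no replicate check. Of the 10 genes, 1 was at least 2-fold apart with an adjusted p under 0.05, Apoe, which was higher in replicate 1. Of all genes tested, 6.8% met that rule, 2.75% as higher in replicate 2 and 4.05% as higher in replicate 1. When size was not limited, 8 of the 10 passed, 6 as higher in replicate 2 and 2 (Apoe and Lrp1) as higher in replicate 1, and 26.6% of all genes passed, 14.8% and 11.9% in those directions. The test passes smaller differences where counts are higher, and these genes had 609 to 21606 counts in a library. The median log2 ratio, replicate 2 over replicate 1, was 0.13 over the 10 genes and -0.00 over all genes tested.

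**Figure D2:**
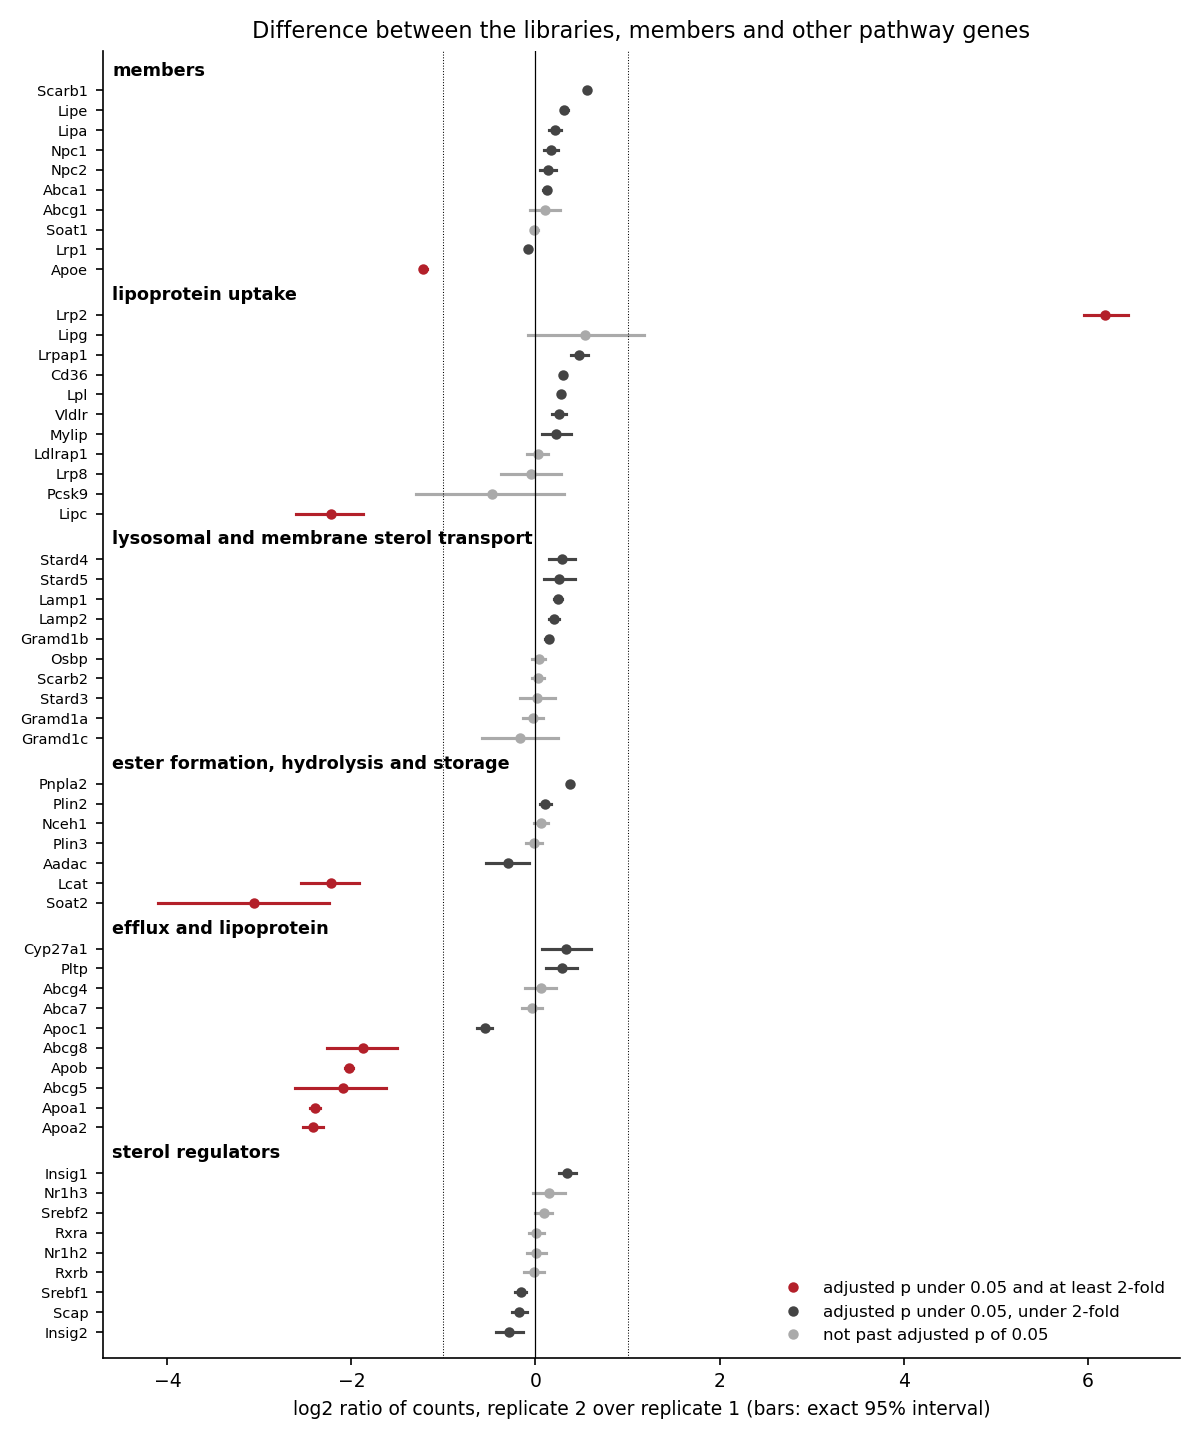
Log2 ratio of counts, replicate 2 over replicate 1, for the 10 genes and for other genes of the pathway, grouped by role, with exact 95% intervals as bars and dotted lines at 2-fold. Among the 10, Apoe alone lies beyond 2-fold, at -1.22, while the other pathway genes reach from -3.06 for Soat2 to 6.19 for Lrp2.

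Of the 2 uptake genes among the 10, Scarb1, the gene of SR-BI, was the higher. Scarb1 (ENSMUSG00000037936.15) lies on chromosome 5 from 125277087 to 125341094 on the minus strand in mm10. It stood at 233 TPM in replicate 2 and 167 TPM in replicate 1, a mean of 199.8 ± 46.5 TPM (SD, n = 2). Its counts were 16733 in replicate 2 and 12695 in replicate 1, a ratio of 1.48 with an exact 95% interval of 1.44 to 1.51 after scaling. The cortex markers had log2 ratios between 0.02 and 0.60 with a median of 0.11, beside 0.56 for Scarb1. Star was the highest of them, at 0.60, and Nr5a1 came next, at 0.25. The medians were 0.37 for brown fat and 0.42 for fibroblast markers. The part of any cell type in the difference of Scarb1 was not tested. The annotated gene Gm42633 overlaps Scarb1 on the same strand.

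Scarb1 makes alternative carboxyl ends, known as SR-BI and SR-BII. In the annotation, Scarb1-201 has 13 exons and 509 codons, and Scarb1-202 lacks a 129-base exon and has 506 codons. The exon is shown because its presence decides where the protein ends. It spans chr5:125281105-125281233 on the minus strand of mm10 and holds 42 codons before its stop codon, which is in capitals. Without it, reading runs into the next exon for 39 codons, at chr5:125277746-125277865 on the same strand, up to another stop codon, also in capitals.
Scarb1-201 exon: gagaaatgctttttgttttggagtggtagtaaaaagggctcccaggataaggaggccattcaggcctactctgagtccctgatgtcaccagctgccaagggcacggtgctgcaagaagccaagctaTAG
Scarb1-202 end: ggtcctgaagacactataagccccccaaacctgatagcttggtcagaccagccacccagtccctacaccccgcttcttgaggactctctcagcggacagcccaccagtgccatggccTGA
In the gene's TPM, Scarb1-201 took 74.8% in replicate 2 and 70.5% in replicate 1, and Scarb1-202 took 14.2% in replicate 2 and 15.4% in replicate 1. In the other quantification Scarb1-201 took 57.1% in replicate 2 and 58.5% in replicate 1, and Scarb1-202 took 10.5% and 10.3%. Noncoding processed-transcript models of Scarb1 took 27.7% in replicate 2 and 24.8% in replicate 1 there, against 2.94% and 4.30% in the gene table. Of the 2 forms together, the exon-skipping one made 17.0 ± 1.43% in the gene table and 15.2 ± 0.38% in the other quantification (SD, n = 2). Its level was 33.1 TPM in replicate 2, with a deposited credibility interval of 27.6 to 38.6, and 25.8 TPM in replicate 1, with an interval of 21.03 to 30.8. These intervals overlapped. For the full-length form they were 163.9 to 175.8 TPM in replicate 2 and 109 to 119.9 TPM in replicate 1, which did not overlap.

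**Figure D3:**
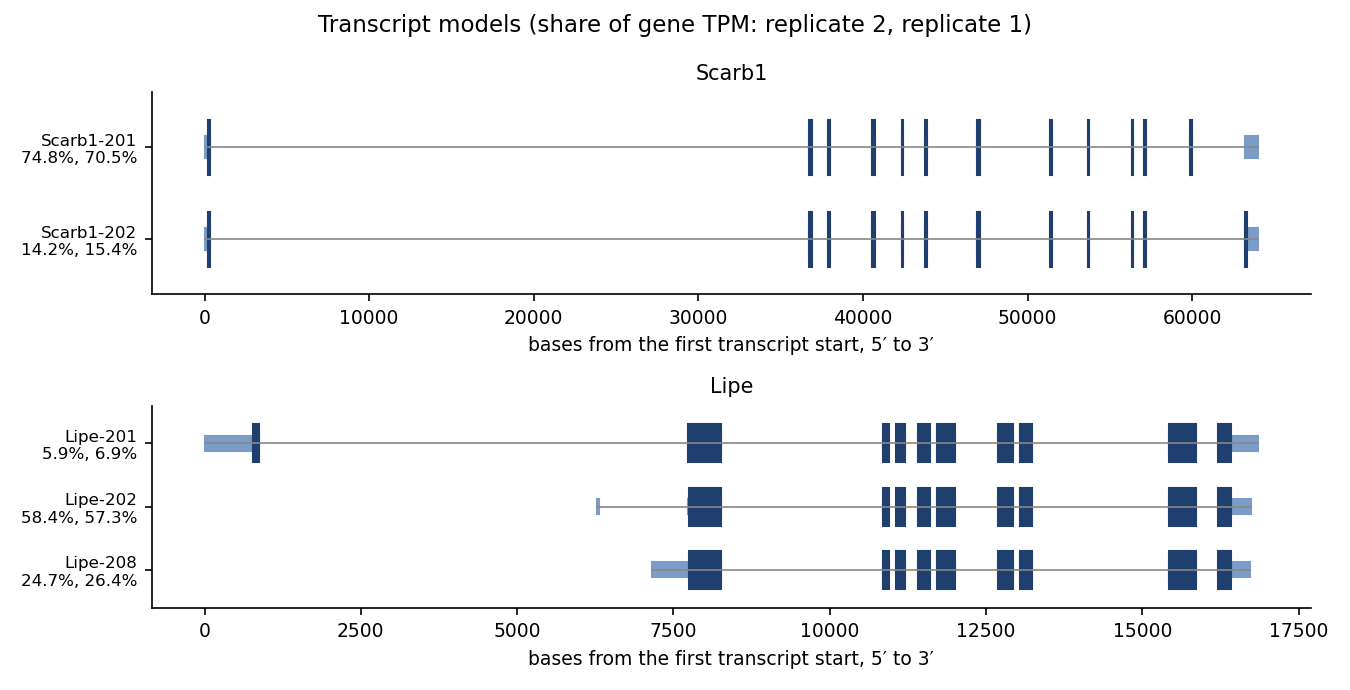
Exons of Scarb1 and Lipe transcripts drawn to scale in bases from the first transcript start, 5′ to 3′, with coding parts as tall dark boxes and the share of the gene's TPM in replicate 2 and replicate 1 beside each name. Scarb1-202 lacks the last coding exon of Scarb1-201, and Lipe-201 starts its coding sequence in an upstream exon that Lipe-202 and Lipe-208 lack.

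Lrp1, a large endocytic receptor for apolipoprotein E-bearing remnants and many other ligands, stood at 61.2 TPM in replicate 2 and 68.6 TPM in replicate 1. Lrp1 (ENSMUSG00000040249.15) lies on chromosome 10 from 127538161 to 127621148 on the minus strand. Its counts of 16303 in replicate 2 and 19355 in replicate 1 gave a ratio of 0.944 (exact 95% interval 0.925 to 0.964), so it was slightly higher in replicate 1. Lrp1-201, the only full receptor model at a share of at least 5%, has 89 exons and 4545 codons. It took 54.8% of the gene's TPM in replicate 2 and 53.7% in replicate 1. Next came Lrp1-208, a retained-intron model of 763 bases, with 24.3% in replicate 2 and 23.3% in replicate 1. In the other quantification that model took 0.131% on average and Lrp1-201 took 76.0%.

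The level of Scarb1 exceeded that of Lrp1 by a log2 TPM ratio of 1.93 in replicate 2 and 1.28 in replicate 1. In the other quantification this ratio was 2.82 in replicate 2 and 2.08 in replicate 1. Of the 13 other uptake genes, 9 were detected. The highest were Cd36, a scavenger receptor and fatty acid transporter, at 386 ± 42.2 TPM, Lpl, the lipoprotein lipase, at 313 ± 34.2 TPM, and Lrpap1, a chaperone of such receptors, at 27.9 ± 5.98 TPM (SD, n = 2). The log2 ratios of Cd36 and Lpl were 0.29 and 0.28, beside marker medians of 0.11 for adipocytes and 0.37 for brown fat. The part of fat cells in the levels of Cd36 and Lpl was not tested. Of 12 other uptake genes tested, 1 was called higher in replicate 2 and 1 higher in replicate 1, beside 2.75% and 4.05% of all genes tested. The first was Lrp2, which encodes the endocytic receptor megalin, with 9333 counts in replicate 2 and 143 in replicate 1. The other was Lipc, the hepatic lipase, with 76 counts in replicate 2 and 399 in replicate 1. Its log2 ratio was -2.22, beside a median of -2.26 over the hepatocyte markers, all 6 of which were called in the same direction, and their part in it was not tested.

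The lysosomal genes were moderately expressed and close between the libraries. Lipa, the lysosomal acid lipase that cleaves esters of endocytosed lipoprotein, stood at 48.4 TPM in replicate 2 and 44.1 TPM in replicate 1. Its ratio of counts was 1.16 (exact 95% interval 1.11 to 1.21), from 4328 counts in replicate 2 and 4190 in replicate 1. Lipa (ENSMUSG00000024781.16) lies on chromosome 19 from 34492318 to 34527474 on the minus strand.

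Npc2, the soluble protein that binds cholesterol in the lysosome, stood at 23.9 TPM in replicate 2 and 23.0 TPM in replicate 1. Npc1, the membrane protein that takes cholesterol over from it, stood at 19.3 TPM in replicate 2 and 17.6 TPM in replicate 1. Neither gene's libraries overlapped the other's. Npc2 exceeded Npc1 by a log2 TPM ratio of 0.35 ± 0.05 in the gene table and by 0.62 in the other quantification. The ratio of counts was 1.12 for Npc1 (exact 95% interval 1.06 to 1.19). It was 1.10 for Npc2 (1.04 to 1.17), with an adjusted p of 0.00592 by the exact binomial test, which became 0.255 when total counts were used for scaling. Npc1 (ENSMUSG00000024413.14) lies on chromosome 18 from 12189692 to 12236400 and Npc2 (ENSMUSG00000021242.9) on chromosome 12 from 84754562 to 84773152, both on the minus strand. Npc1 overlaps Rmc1 and Gm15956 on the opposite strand, and the strand setting of the counting is not given in the sources.

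All 10 other genes of lysosomal and membrane sterol transport were detected. Lamp1 and Lamp2, which encode the main lysosomal membrane glycoproteins, stood at 124 ± 11.4 and 58.5 ± 5.30 TPM. Gramd1b, which moves cholesterol from the plasma membrane to the endoplasmic reticulum, stood at 97.2 ± 1.36 TPM (SD, n = 2). None of the 10 was called at 2-fold. Without that limit 5 passed the exact binomial test, all as higher in replicate 2 (Lamp1, Lamp2, Gramd1b, Stard4 and Stard5), and the median log2 ratio of the list was 0.09. Of all genes tested, 26.6% passed without that limit, 14.8% as higher in replicate 2.

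Ester storage was represented by Soat1 and Lipe, both above 100 TPM in each library. Soat1, the acyltransferase that makes cholesteryl esters, stood at 116.7 TPM in replicate 2 and 116.4 TPM in replicate 1. Its counts of 8948 in replicate 2 and 10116 in replicate 1 gave a ratio of 0.992 after scaling, with an exact 95% interval of 0.964 to 1.02 and an adjusted p of 0.758 by the exact binomial test. With total counts for scaling, which moved the median of all genes to -0.07, its log2 ratio was -0.08 and the adjusted p was 0.00046. Soat1 (ENSMUSG00000026600.12) lies on chromosome 1 from 156424525 to 156474331 on the minus strand, with Gm37648 on the opposite strand. Soat2, the enzyme of intestine and liver, had 12 counts in replicate 2 and 116 in replicate 1 and was called higher in replicate 1. Soat1 exceeded Soat2 by a log2 TPM ratio of 9.34 in replicate 2 and 6.16 in replicate 1.

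Lipe encodes hormone-sensitive lipase, which hydrolyses stored cholesteryl esters in steroidogenic cells and diglycerides in fat cells. It stood at 157.7 TPM in replicate 2 and 129 TPM in replicate 1, a mean of 143 ± 20.2 TPM (SD, n = 2). Its counts of 12322 in replicate 2 and 11119 in replicate 1 gave a ratio of 1.24 (exact 95% interval 1.21 to 1.27). Lipe (ENSMUSG00000003123.15) lies on chromosome 7 from 25379527 to 25398710 on the minus strand, and 4732471J01Rik lies opposite. Fat cells also express Lipe, and their markers were abundant except for Lep and Elovl3, at 2.29 ± 0.0566 and 2.17 ± 0.240 TPM (SD, n = 2). The 5 adipocyte markers, with Fabp4 and Plin1 highest at 1728 ± 274 and 305 ± 1.94 TPM, summed to 2527 TPM in replicate 2 and 2120 TPM in replicate 1. The 4 brown fat markers, with Ucp1 and Cox8b highest at 1140 ± 229 and 1041 ± 84.4 TPM, summed to 2938 TPM in replicate 2 and 2407 TPM in replicate 1. The median log2 ratio was 0.11 for the adipocyte and 0.37 for the brown fat markers, beside 0.31 for Lipe. Among these markers only Lep had a negative log2 ratio, -0.23. The part of fat cells in the level of Lipe was not tested. In bulk tissue, fewer cells of a type and less RNA per cell cannot be told apart.

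Lipe has several starts. Lipe-202 took 58.4% of its TPM in replicate 2 and 57.3% in replicate 1, and Lipe-208 took 24.7% in replicate 2 and 26.4% in replicate 1. In the other quantification they were nearer each other, Lipe-202 with 43.3% in replicate 2 and 40.7% in replicate 1 and Lipe-208 with 39.7% and 40.1% in the same libraries. Both hold the same 759 codons, Lipe-202 in a model of 10 exons and 2661 bases and Lipe-208 in one of 9 exons and 3171 bases. Lipe-201 begins its coding sequence in an upstream exon and has 802 codons, 43 more. It took 5.89% in replicate 2 and 6.94% in replicate 1, and in the other quantification 7.29% and 8.45% in the same libraries. The added coding start is shown because it is what sets that protein apart. It joins chr7:25395501-25395609 to chr7:25388631-25388653 on the minus strand of mm10, and the capitals mark its own start codon and the start codon used by the shorter forms.
Lipe-201 start: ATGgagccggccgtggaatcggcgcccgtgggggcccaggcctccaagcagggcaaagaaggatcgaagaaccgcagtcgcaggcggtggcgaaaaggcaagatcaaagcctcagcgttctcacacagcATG
The longest annotated coding form, Lipe-204 with 1072 codons, which was picked out after its values were seen, was at 0.04 TPM in replicate 2 and 0.05 TPM in replicate 1.

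Within a library, the gene totals of Soat1 and Lipe had a log2 TPM ratio, Soat1 over Lipe, of -0.43 in replicate 2 and -0.15 in replicate 1. In the other quantification the ratio was -0.67 and -0.35 in the same libraries. In the gene table, the Soat1 models with all 540 codons summed to 58.9 TPM in replicate 2 and 60.1 TPM in replicate 1. The Lipe models of 759 codons summed to 131 and 108 TPM in the same libraries. Lipe exceeded the lysosomal lipase gene Lipa by a log2 TPM ratio of 1.70 in replicate 2 and 1.55 in replicate 1. Of 8 other genes of ester formation, hydrolysis and storage, 6 were detected. Pnpla2, the adipose triglyceride lipase, stood at 433 ± 60.5 TPM, and the droplet coat genes Plin2 and Plin3 at 99.6 ± 1.51 and 32.0 ± 0.481 TPM (SD, n = 2). The log2 ratio of Pnpla2 was 0.37, beside marker medians of 0.11 for adipocytes and 0.37 for brown fat. The part of fat cells in the level of Pnpla2 was not tested. Of 7 genes of this list tested, none was called higher in replicate 2, and Soat2 and Lcat were called higher in replicate 1. Of all genes tested, 2.75% and 4.05% were called in those directions. Lcat, which makes esters on circulating lipoprotein, had 103 counts in replicate 2 and 541 in replicate 1. The log2 ratios of Soat2 and Lcat were -3.06 and -2.22, beside the hepatocyte marker median of -2.26, and the part of liver RNA in them was not tested.

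Among the export genes Abca1, which loads cholesterol onto lipid-poor apolipoprotein A-I, stood at 35.7 TPM in replicate 2 and 34.1 TPM in replicate 1. Its ratio of counts was 1.09 (exact 95% interval 1.06 to 1.12). Abca1 (ENSMUSG00000015243.4) lies on chromosome 4 from 53030787 to 53159895 on the minus strand. It was the member with the simplest output, since Abca1-201, with 50 exons and 2261 codons, took 97.4% of its TPM in replicate 2 and 97.8% in replicate 1. Abcg1, which passes cholesterol to mature high-density lipoprotein, stood at 5.55 TPM in replicate 2 and 4.69 TPM in replicate 1. It had 609 counts in replicate 2 and 637 in replicate 1, a ratio of 1.07 (exact 95% interval 0.958 to 1.20) with an adjusted p of 0.425 by the exact binomial test. Abcg1 (ENSMUSG00000024030.7) lies on chromosome 17 from 31057675 to 31117988 on the plus strand, and Gm25447 overlaps it on the same strand. Abca1 exceeded Abcg1 by a log2 TPM ratio of 2.69 in replicate 2 and 2.86 in replicate 1. In the other quantification this ratio was 2.25 in replicate 2 and 2.49 in replicate 1.

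The annotated start of Abca1 is shown because Abca1-201, 1 of its 2 annotated transcripts, carries nearly all of its level. RefSeq and the annotation place that start at the same base. Use of this start in the tissue was not measured. RefSeq (GRCm38.p6) gives 250 bases before the start at chr4:53159896-53160145 on the minus strand. Read 5′ to 3′, the capitals mark a GC box (GGGCGG) at 163 to 158 bases before the start, an E-box (CACGTG) at 147 to 142, another GC box at 97 to 92 and a TATA box (TATAAA) at 29 to 24.
Abca1 promoter: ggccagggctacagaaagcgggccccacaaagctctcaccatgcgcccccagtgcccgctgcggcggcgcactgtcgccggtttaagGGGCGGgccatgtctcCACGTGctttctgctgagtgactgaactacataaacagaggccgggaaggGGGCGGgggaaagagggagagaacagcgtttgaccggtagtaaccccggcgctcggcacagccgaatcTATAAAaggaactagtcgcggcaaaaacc
Over 32851 RefSeq promoters, read on both strands from 250 bases before to 50 bases after the start, CACGTG was in 7.15%, TATAAA in 13.6% and GGGCGG in 35.7%. Entries were found for 7 of the 10 genes, with 10 promoters, and Scarb1, Npc1 and Abcg1 were not among them. Of these 10, GGGCGG was in 6, TATAAA in 3 (Abca1, Apoe and Lipa) and CACGTG in 2 (Abca1 and Lipe). The letters CAAGGTCA (SF-1 site), TGACGTCA (cAMP response element) and TCACNCCAC (sterol response element) were in none of those 10 promoters, and in 1.56%, 1.79% and 1.24% of all promoters. A match is a description of the letters in this window.

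Apoe encodes apolipoprotein E, a ligand of endocytic lipoprotein receptors that is made by liver, by macrophages and, in mice, by adrenal cortical cells. Apoe (ENSMUSG00000002985.16) lies on chromosome 7 from 19696109 to 19699188 on the minus strand. It stood at 254 TPM in replicate 2 and 618 TPM in replicate 1. Its counts were 8275 in replicate 2 and 21606 in replicate 1, which made it 2.33-fold higher in replicate 1 (exact 95% interval 2.27 to 2.39) and the only member called. The 6 hepatocyte markers were all called higher in replicate 1. They summed to 786.9 TPM in replicate 2 and 4052 TPM in replicate 1, which is 5.15-fold higher in replicate 1, and their median log2 ratio was -2.26, beside -1.22 for Apoe. Alb and Ahsg, which encode liver plasma proteins, led that list, Alb with 501.6 TPM in replicate 2 and 2509 TPM in replicate 1 and Ahsg with 173 and 995.8 TPM in the same libraries. The 8 macrophage markers, none of them called, summed to 72.5 TPM in replicate 2 and 87.5 TPM in replicate 1, with Lyz2 and Csf1r highest at 31.2 ± 5.25 and 10.6 ± 1.77 TPM. The part of liver or macrophage RNA in the difference of Apoe was not tested.

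Other apolipoprotein genes were higher in replicate 1 as well. Of 11 other efflux and lipoprotein genes, 8 were detected, and of 10 tested, none was called higher in replicate 2 and 5 were called higher in replicate 1. Of all genes tested, 2.75% and 4.05% were called in those directions. Apoa1, the main protein of high-density lipoprotein, stood at 108 TPM in replicate 2 and 587 TPM in replicate 1. Its partner Apoa2 stood at 62.2 TPM in replicate 2 and 347 TPM in replicate 1. Apob, the scaffold of low-density lipoprotein, had a log2 ratio of -2.02, and the half-transporters Abcg5 and Abcg8, which export sterols into bile and gut, had -2.09 and -1.87. Apoc1 stood at 197 TPM in replicate 2 and 300.3 TPM in replicate 1, a log2 ratio of -0.55 under the 2-fold limit. The list's median log2 ratio was -1.21. Apoa1 and Apoa2 had log2 ratios of -2.39 and -2.42. The median over the hepatocyte markers was -2.26, and the part of liver RNA in the differences of this list was not tested.

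The other marker lists give the makeup beside which these values stand. All 7 kidney tubule markers were called higher in replicate 2, with a summed level of 203 TPM in replicate 2 and 0.60 TPM in replicate 1. Slc34a1, a phosphate transporter, and Kap led them at 80.8 and 70.2 TPM in replicate 2 and 0.14 and 0.20 TPM in replicate 1, and Slc22a6 had 479 counts in replicate 2 and 0 in replicate 1. Lrp2, called in the same direction, is also an abundant receptor of kidney tubule, and the part of kidney RNA in its difference was not tested. Skeletal muscle markers summed to 942.6 TPM in replicate 2 and 2686 TPM in replicate 1, led by Acta1 and Mylpf. Of these 5, 4 were called higher in replicate 1 and 1, Myh4, in replicate 2. Erythroid markers, led by Hba-a1 and Hbb-bs, summed to 1797 TPM in replicate 2 and 3092 TPM in replicate 1, with 1 of 4 called, Slc4a1, as higher in replicate 1. No cortex, chromaffin, endothelial, fibroblast or Schwann cell marker was called. Chga and Chgb led the chromaffin list, Egfl7 and Cdh5 the endothelial, Col1a1 and Dcn the fibroblast and S100b the Schwann cell list. Their median log2 ratios were -0.09 for chromaffin, 0.07 for endothelial, 0.42 for fibroblast and -0.14 for Schwann cell markers.

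**Figure D4:**
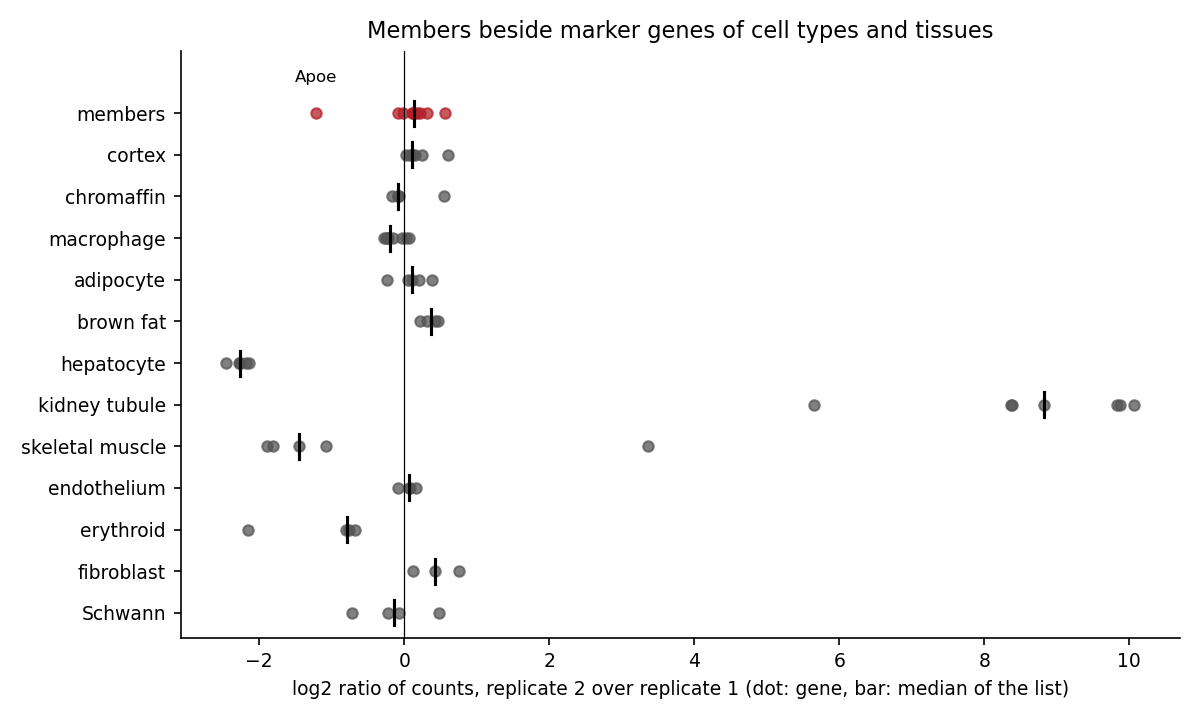
Log2 ratio of counts, replicate 2 over replicate 1, of the 10 cholesterol genes (red) and of the marker genes of each cell type or tissue (grey), with the median of each list as a black bar. Apoe, at -1.22, lies between the other 9 cholesterol genes and the hepatocyte markers, whose median is -2.26, and the kidney tubule markers lie at 5.66 and above, with Slc22a6, at 0 counts in replicate 1, drawn with 0.5 added to each count.

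All 9 sterol regulators had at least 10 TPM in both libraries and none was called at 2-fold, with a median log2 ratio of 0.01. By the exact binomial test without that limit, 4 of the 9 passed after adjustment over all genes tested, of which 26.6% passed. Insig1, at a log2 ratio of 0.35, was higher in replicate 2, and Srebf1 (-0.16), Scap (-0.18) and Insig2 (-0.28) were higher in replicate 1. Srebf1, a transcription factor of lipid synthesis, stood at 54.8 ± 8.93 TPM, Nr1h2, an oxysterol receptor that raises Abca1 and Abcg1, at 29.7 ± 0.332 TPM, and Insig1, which holds the SREBP escort in the endoplasmic reticulum, at 25.8 ± 3.30 TPM (SD, n = 2).

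The transcript with the largest share of each gene's TPM was the same in both libraries for all 10 genes, within either quantification. Between the quantifications it was the same for 8 of 10, and it differed for Lipa and Apoe. For Lipa the gene table gave Lipa-201 92.0% in replicate 2 and 82.1% in replicate 1, whereas the other quantification gave it 30.5% on average and gave Lipa-202 63.5%. These models both have 397 codons and differ by 4 bases in length and in the bounds of 1 exon. Together they made 97.0% of the gene in replicate 2 and 95.2% in replicate 1, and 94.4% and 93.7% in the other quantification. For Apoe the gene table gave Apoe-209 81.3% in replicate 2 and 79.7% in replicate 1, and the other quantification listed it at 0 and gave Apoe-205 95.5% in replicate 2 and 92.9% in replicate 1. Both encode 311 codons. The 4 models with that full coding sequence summed to 98.8% in replicate 2 and 98.9% in replicate 1, and to 99.5% and 97.0% in the other quantification.

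**Figure D5:**
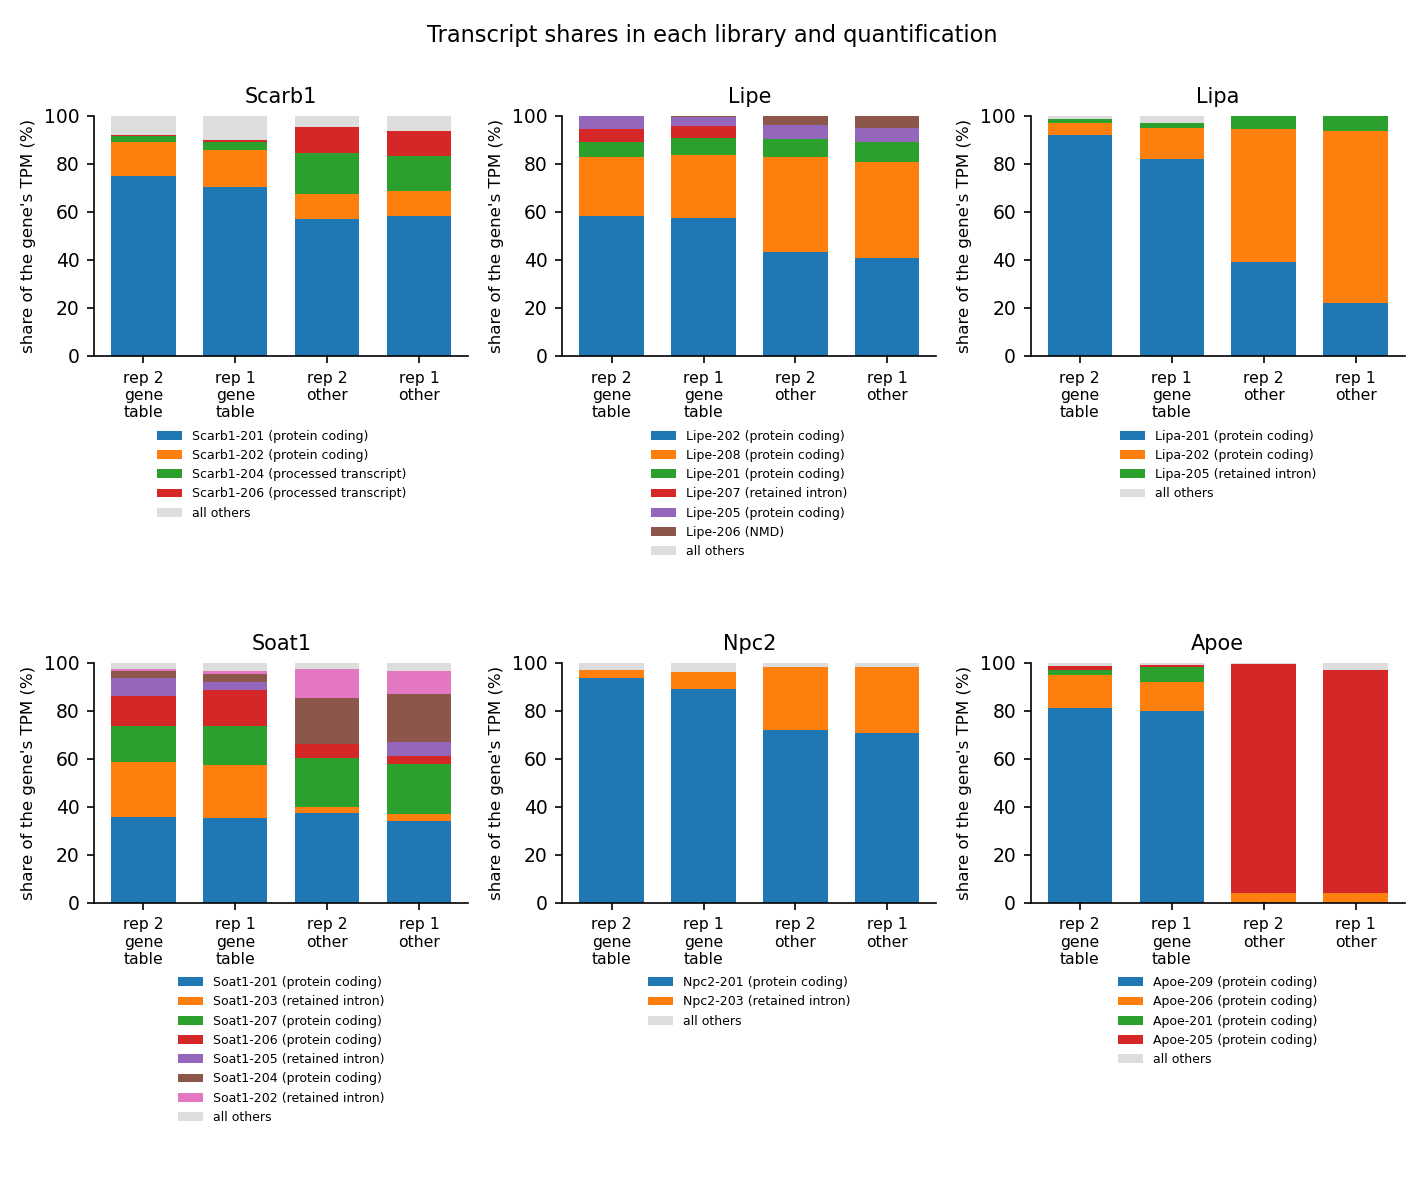
Share of each gene's TPM in its transcripts (percent, stacked to 100), for replicate 2 and replicate 1 in the gene table and then in the other quantification, with transcripts under 5% in every bar in grey. The libraries resemble each other within a quantification, while Lipa and Apoe change their leading transcript between the quantifications.

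Retained-intron models took unequal shares of these genes. In Soat1 they summed to 33.7% in replicate 2 and 29.9% in replicate 1, in Lrp1 to 29.2% and 28.6%, and in Npc1 to 25.6% and 23.4% in the same libraries. The median over 7527 detected protein-coding genes with such a model was 10.4% in replicate 2 and 11.8% in replicate 1. Scarb1 (6.71% and 9.11%), Lipe (5.58% and 5.04%), Lipa (1.78% and 2.05%), Abcg1 (5.06% and 7.91%) and Apoe (0.12% and 0.16%) lay below it in replicate 2 and replicate 1. In the other quantification that median was 10.7% in replicate 2 and 12.0% in replicate 1. There Soat1 had 17.0% in replicate 2 and 21.5% in replicate 1, Lrp1, now below the median, 4.58% and 5.17%, and Npc1 13.7% and 12.4%. Npc2 went the other way, with 6.31% in replicate 2 and 10.9% in replicate 1 in the gene table and 28.1% and 29.3% in the other quantification. The coding forms of Soat1 also differed in length but not in coding sequence. Soat1-201, of 2925 bases, took 35.8% in replicate 2 and 35.3% in replicate 1, and Soat1-207, of 8371 bases, took 14.6% and 16.3%, both with 540 codons. Npc2-201, with 149 codons, took 93.7% in replicate 2 and 89.1% in replicate 1, and Npc1-201, with 1277 codons, took 73.3% and 75.3%. Abcg1-201, with 666 codons, took 54.6% in replicate 2 and 65.2% in replicate 1, at 3.03 and 3.06 TPM.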

How the data were processed

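Total RNA of the adrenal gland was measured in 2 libraries of 1 group. Per gene and transcript, the authors deposited expected counts, TPM and bounds of a TPM credibility interval (a signal range), under column names that RSEM uses. The deposited transcript table also gives each transcript's percent of its gene's TPM. A further deposited table holds estimated counts and TPM under column names that kallisto uses. The mm10 assembly and the M21 annotation were used, per the file headers and deposited notes. Not given in the sources used here are tool versions, strand settings and any use of CAST/EiJ variants.

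Features with a bare number as ID (26248, at 1.8e-05% of counts in replicate 2 and 1.96e-05% in replicate 1) stayed out of tests. A count of 0 allows 3 counts, 0.0907 CPM in replicate 2 and 0.085 CPM in replicate 1. Counting error is the only error that intervals and this limit cover. Counts were rounded and scaled by TMM (edgeR 4.0.16, R 4.3.3). Genes whose counts summed to 20 or more were tested with an exact two-sided binomial test (scipy 1.17.1) and the Benjamini-Hochberg adjustment, at an adjusted p of 0.05 and 2-fold. With 1 group there is no contrast for a quasi-likelihood test. For log2 ratios 0.5 was added to each count, and intervals of ratios are exact 95% Clopper-Pearson intervals. The exact test and its log2 ratios, but no other step, were tried on counts simulated with counting error only. The named genes are the 10 members, the 3 genes with the highest mean TPM and every called gene of each pathway list, the top 2 of each marker list and the genes of paired ratios. A few items under that rule are not reported here. Myh4, Slc4a1, Lep, Elovl3, Stard4, Stard5, Scap, Insig2, Star and Nr5a1 lie outside that rule and were chosen after their values were seen. The members and lists were chosen with earlier results of these data known. Alternatives were DESeq2 1.42.0 size factors, total count, ERCC total, no count minimum, a stricter threshold, the other quantification, other TPM denominators and detection limits, a pseudocount, and each library left out.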

Additional observations from a re-analysis of the deposited data

How the results depend on the processing

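The counts of members detected, called at 2-fold and past counting error, and of pathway genes called, stayed within 1.5 times under each alternative run: 10 members detected (9 at 10 TPM), 1 called, 8 past counting error and 9 pathway genes called. With total counts for scaling, the 8 past counting error were not the same genes. Npc2 left, with an adjusted p of 0.255 by the exact binomial test, and Soat1 entered, with 0.00046. Across 5 other settings for each gene, 49 of 50 log2 ratios kept their direction and their side of the 2-fold rule. The exception was Soat1, whose log2 ratio of -0.01 became 0.0097 in the other quantification, with adjusted p-values of 0.758 and 0.806 by the exact test, and the cause was not tested. Scaling by total count moved the median of all genes to -0.07. Apoe stayed between -1.29 and -1.19 and Scarb1 between 0.49 and 0.57 over those settings. With both libraries kept, levels moved by more than 1 SD in 19 of 30 comparisons, mostly under the other quantification and under scaling over nuclear protein-coding genes alone. Under that scaling Apoe averaged 1296 TPM, Scarb1 601 TPM and Abcg1 15.4 TPM. Shares of the leading transcript moved by more than 1 SD in 9 of 10 comparisons, and paired ratios in 7 of 16, with no change of sign in a paired ratio. Leaving out 1 of 2 libraries cannot move a mean by 1 SD, so it says nothing of the stability of these values. No paired analysis was possible because there is 1 group, so no replicate numbers are shared between groups. With 2 libraries, an exact sign-flip test cannot go below a p of 0.5, and none was run. Depth limits Abcg1 most among the members, with 609 counts in replicate 2 and 637 in replicate 1.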
